A study of Mus musculus with 8 samples.

Results

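The genes described here are 10 regulators of the first gap phase of the cell cycle (G1) and of entry into S phase: the D-type cyclin genes Ccnd1 and Ccnd2, the kinase gene Cdk6, the E-type cyclin genes Ccne1 and Ccne2, the phosphatase gene Cdc25a, the transcription factor gene Myc, and the inhibitor genes Cdkn1b, Cdkn1c and Cdkn2b. They were chosen by name, with earlier results of these data known, so counts of them beside shares of all genes are descriptions. All 10 were measured among 19937 genes, through 11 of the 34760 probesets. Cdkn1a had 0 probesets that carried its symbol alone and is not analysed here. The arrays came from NMuMG, a mouse mammary gland epithelial line, as total RNA of stably transfected cells. One line carried a control vector and the other a vector with major satellite sequence, a repeat that in mouse surrounds the centromeres. Each was untreated (0 h) or treated for 8 h with TGFbeta, which gave 4 groups of 2 arrays: control vector at 0 h, control vector with TGFbeta, major satellite vector at 0 h, and major satellite vector with TGFbeta. No array was labelled as untreated at 8 h, so TGFbeta and time in culture cannot be told apart in the TGFbeta responses below. For the TGFbeta isoform and dose, and for whether a line was 1 clone, the sources used here give nothing. Nothing in the labels said that the arrays of a group were separate cultures, so the spread behind each p-value may be technical.

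D-type cyclins bind and activate Cdk4 and Cdk6, and E-type cyclins activate Cdk2. Together these kinases phosphorylate the retinoblastoma protein, which releases E2F transcription factors and lets DNA replication genes be expressed. Cdc25a removes inhibitory phosphates from cyclin-dependent kinases, Myc drives growth and G1 progression, and the inhibitors of the Ink4 class (Cdkn2b, p15) and the Cip/Kip class (Cdkn1b, p27, and Cdkn1c, p57) oppose the kinases. In many epithelial cells TGFbeta is known to arrest growth in G1, with induction of p15 and repression of Myc as classical parts of that programme.

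Each array title carried 1 of 2 codes, and each code marked 1 array of every group. The code was taken as the replicate number. Array medians were 7.72 to 7.76 for number 1 and 7.88 to 7.92 for number 2. The comparisons of TGFbeta with untreated arrays, and of the vectors, were specified as paired by the code. They were therefore made within the replicate number, which entered the limma model as a block. The same model with no replicate block is given where it changes a call. With the block, the spread behind a p-value is what remained between arrays after the mean difference between the numbers was removed. With no block it includes that difference. Of 9 epithelial markers, 6 lay above the array median on all 8 arrays, among them Cdh1, Krt8 and Krt18, and Epcam and Esrp1 lay below it on all 8. Of 8 fibroblast markers, 3 lay above it on all 8. The mean over the fibroblast list was 7.03 to 7.32 on untreated and 7.30 to 7.47 on TGFbeta arrays, and its part in the results below was not tested. Of 5 endothelial and 4 immune markers, 0 lay above the median on all 8 arrays.

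RefSeq promoter windows of GRCm38.p6 were available for 5 of the 10 genes. The 250 bases before the start are shown for Ccne1, Cdc25a, Cdk6 and Cdkn2b. On the mean of both lines Ccne1, Cdc25a and Cdk6 passed as lower after TGFbeta and Cdkn2b as higher, at an adjusted p under 0.05 by limma. Cdc25a passed in neither line alone. The window of Cdkn1b, which did not pass, is not shown. Capitals mark the motifs searched on both strands: the E2F words TTTCCCGC, TTTCGCGC, TTTGCCGC and TTTGGCGC, the E-box CACGTG bound by Myc and Max, the Smad word CAGAC and the GC box GGGCGG bound by Sp1.
Ccne1 (chr7:38107491-38107740, minus strand): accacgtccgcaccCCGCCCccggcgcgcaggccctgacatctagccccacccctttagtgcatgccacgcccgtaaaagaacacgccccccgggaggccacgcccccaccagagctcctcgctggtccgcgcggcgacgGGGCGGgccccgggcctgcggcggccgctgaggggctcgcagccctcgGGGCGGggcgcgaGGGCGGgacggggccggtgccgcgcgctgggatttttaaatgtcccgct
Cdc25a (chr9:109875329-109875578, plus strand): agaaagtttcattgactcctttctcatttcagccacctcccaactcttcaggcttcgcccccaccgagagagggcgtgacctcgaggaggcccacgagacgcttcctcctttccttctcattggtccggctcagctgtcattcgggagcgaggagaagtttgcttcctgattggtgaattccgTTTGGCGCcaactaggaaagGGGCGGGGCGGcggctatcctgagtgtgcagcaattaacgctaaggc
Cdk6 (chr5:3343643-3343892, plus strand): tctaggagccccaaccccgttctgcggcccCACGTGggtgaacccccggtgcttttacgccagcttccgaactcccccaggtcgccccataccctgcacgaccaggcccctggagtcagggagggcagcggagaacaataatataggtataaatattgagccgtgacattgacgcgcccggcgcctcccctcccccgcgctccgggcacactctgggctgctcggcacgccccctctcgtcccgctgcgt
Cdkn2b (chr4:89311033-89311282, minus strand): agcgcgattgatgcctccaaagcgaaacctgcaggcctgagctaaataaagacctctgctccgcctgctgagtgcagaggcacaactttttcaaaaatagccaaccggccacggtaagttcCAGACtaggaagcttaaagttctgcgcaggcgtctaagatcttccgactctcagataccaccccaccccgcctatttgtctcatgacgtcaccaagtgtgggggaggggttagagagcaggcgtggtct
Cdc25a had an E2F word, TTTGGCGC, 67 bases before the start and GC boxes, overlapping by 1 base, at 47 and 42. An E2F word stood in 1.86% of all 32851 windows of this length. Ccne1 had 4 GC boxes, the nearest 49 bases before the start, and at least 1 GC box stood in 32.7% of windows. G and C made up 76% of the Ccne1 window, beside a median of 52.4% over all windows. Cdk6 had an E-box 220 bases before the start (6.02% of windows), and Cdkn2b a CAGAC 129 bases before it (42.2% of windows). The Cdkn1b window had a GC box 61 bases before the start and none of the other motifs. These matches describe letters in the windows and show no binding.

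The first question was how these genes responded to 8 h of TGFbeta in each line. In control vector cells 5 of the 10 fell (Ccnd2, Cdk6, Ccne1, Ccne2 and Myc), 1 rose (Cdkn2b) and 4 did not pass at an adjusted p under 0.05. Over all genes of that comparison 14.6% passed, 7.63% lower and 6.92% higher. In major satellite cells 5 again fell and 1 rose, against 15.3% of all genes passing, 8.38% lower and 6.89% higher. The median of the 10 differences was -0.38 in control vector and -0.40 in major satellite cells, beside 0.01 and 0.03 over all genes. The model with no replicate block called 2 of the 10 in control vector cells, both lower (Cdk6 and Ccne2), against 1.07% of all genes (0.707% higher, 0.366% lower). It called 1 in major satellite cells, also lower (Cdk6), against 1.09% (0.682% higher, 0.411% lower). Each log2 difference below stands with its standard error (±) and limma's Benjamini-Hochberg adjusted p over all genes, from 2 arrays per group. In bulk RNA, fewer cells expressing a gene and less RNA per cell cannot be told apart.

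Ccnd2, which encodes cyclin D2, showed the largest fall of the 10. Its log2 level in control vector cells was 12.11 and 12.09 untreated and 10.77 and 10.29 with TGFbeta (numbers 1 and 2 in turn). In major satellite cells it was 12.30 and 12.04 untreated and 10.95 and 10.02 with TGFbeta. All 4 TGFbeta arrays lay more than 1 log2 unit below all 4 untreated arrays. Ccnd2 fell by 1.57 ± 0.18 in control vector cells (2.96-fold lower, adjusted p = 0.000474) and fell by 1.68 ± 0.18 in major satellite cells (3.21-fold lower, adjusted p = 0.000348). These became 0.0956 and 0.0816 with no replicate block. On the mean of both lines it fell by 1.62 ± 0.12, and 43 of the 19937 genes, itself included, fell at least as far.

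Ccnd1, which encodes cyclin D1, behaved differently in size. Its levels were 13.74 and 13.51 untreated and 13.49 and 13.12 with TGFbeta in control vector cells, and 13.77 and 13.54 untreated and 13.62 and 13.05 with TGFbeta in major satellite cells. It was lower with TGFbeta in 4 of 4 pairs, but treated and untreated arrays overlapped. Its differences were -0.32 ± 0.10 (adjusted p = 0.078) in control vector and -0.32 ± 0.10 (adjusted p = 0.0755) in major satellite cells, and neither passed. The control vector value passed without either treated major satellite array (0.0379 each), the major satellite value without that group's number 1 array (0.0261), and both with an intensity trend (0.0297 and 0.0303). The mean of both lines passed (-0.32 ± 0.07, adjusted p = 0.0118, with no replicate block 0.481). That call was lost without the number 2 array of untreated control vector (0.062), treated control vector (0.0509) or untreated major satellite cells (0.0663). The Ccnd1 signal, up to 13.77, lay near the top of the table's range, which ended at 14.75.

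Cdk6, the kinase partner of D-type cyclins, fell in both lines, by 0.83 to 0.97 in control vector and 0.89 to 1.01 in major satellite pairs. Its levels were 12.48 and 12.59 untreated and 11.51 and 11.76 with TGFbeta in control vector cells. In major satellite cells they were 12.46 and 12.61 untreated and 11.57 and 11.59 with TGFbeta. The 4 treated arrays lay below the 4 untreated ones. Cdk6 fell by 0.90 ± 0.09 (1.86-fold lower, adjusted p = 0.000241) and by 0.95 ± 0.09 (1.93-fold lower, adjusted p = 0.000199). It was the 1 gene of the 10 that passed in both lines also with no replicate block (0.0401 and 0.0369).

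**Figure D1:**
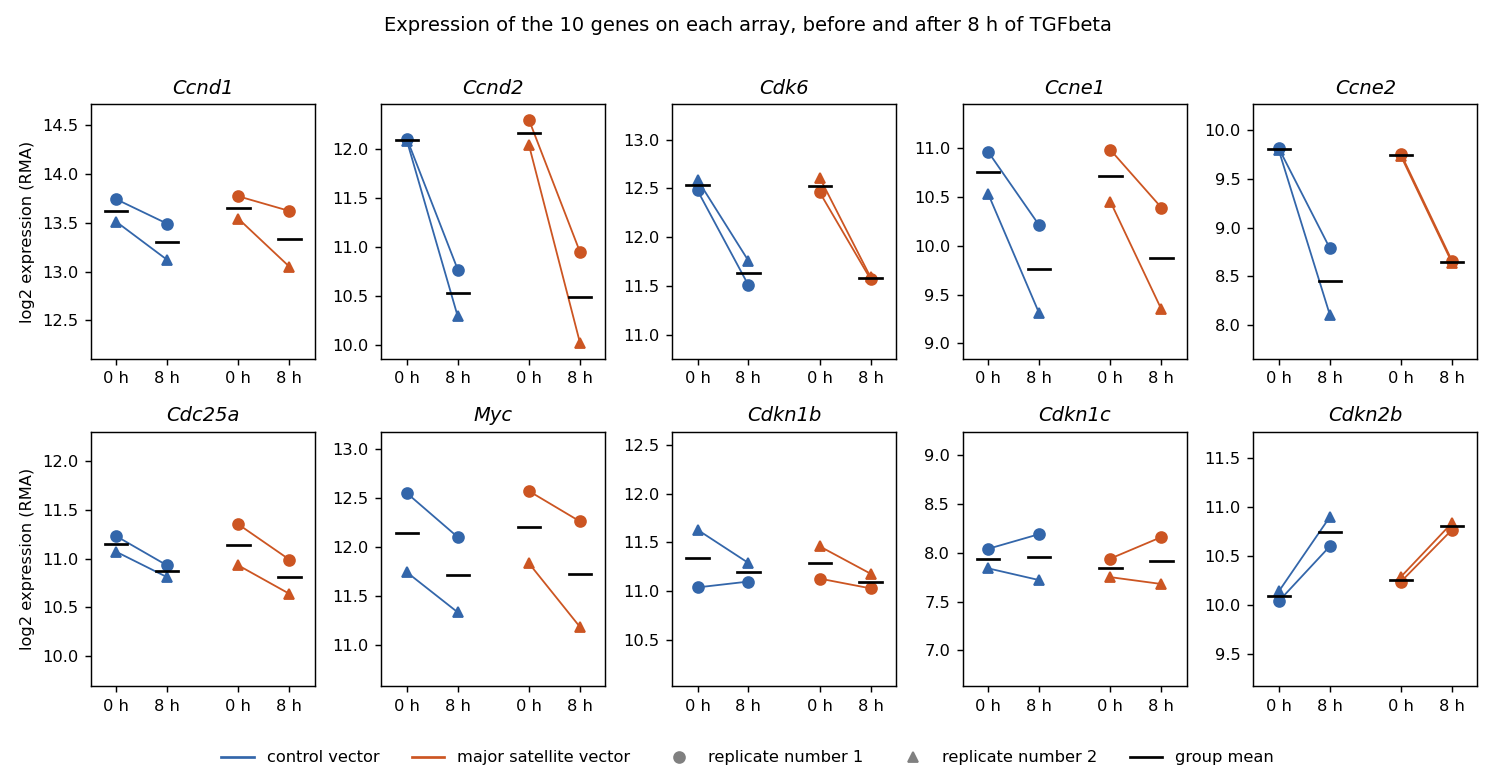
Log2 expression (RMA, vertical axis, each panel 2.6 log2 units high) of the 10 genes on the 8 arrays, untreated (0 h) and after 8 h of TGFbeta. Lines join the arrays of 1 replicate number, circles number 1 and triangles number 2, blue control vector and orange major satellite, and black bars group means. Ccnd2, Cdk6, Ccne1 and Ccne2 were lower on all 4 treated arrays, and Cdkn2b was higher.

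The E-type cyclin genes fell together. Ccne2, which encodes cyclin E2, was at 9.81 and 9.79 untreated and 8.79 and 8.11 with TGFbeta in control vector cells, and at 9.75 and 9.73 untreated and 8.66 and 8.64 with TGFbeta in major satellite cells. The 4 untreated arrays lay close together and above every treated array. The fall was 1.35 ± 0.16 in control vector cells (2.55-fold lower, adjusted p = 0.000535, with no replicate block 0.0473). It was 1.09 ± 0.16 in major satellite cells (2.13-fold lower, adjusted p = 0.00174, with no replicate block 0.089).

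Ccne1, which encodes cyclin E1, was at 10.96 and 10.53 untreated and 10.21 and 9.31 with TGFbeta in control vector cells. In major satellite cells it was at 10.98 and 10.45 untreated and 10.39 and 9.35 with TGFbeta. Number 1 arrays were higher than number 2 arrays in every group, by 0.43 to 1.04, and the 4 treated arrays still lay below the 4 untreated ones. Ccne1 fell by 0.98 ± 0.14 (1.98-fold lower, adjusted p = 0.00184) in control vector and by 0.84 ± 0.14 (1.79-fold lower, adjusted p = 0.00433) in major satellite cells. Both were lost with no replicate block (0.596 and 0.689). The major satellite call was lost without the number 2 array of either group of that line (0.0589 and 0.0537).

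Cdc25a changed less. Its levels were 11.23 and 11.07 untreated and 10.93 and 10.81 with TGFbeta in control vector cells, and 11.35 and 10.93 untreated and 10.99 and 10.64 with TGFbeta in major satellite cells. It was lower in 4 of 4 pairs, by 0.26 to 0.36, and the arrays of treated and untreated cells overlapped. The differences of -0.28 ± 0.10 (adjusted p = 0.103) and -0.32 ± 0.10 (adjusted p = 0.0578) did not pass. The major satellite value passed with arrays centred on their medians (0.0491), with dim genes left out (0.0449) and with an intensity trend (0.0457). The mean of both lines did (-0.30 ± 0.07, adjusted p = 0.0118, with no replicate block 0.377). It was lost without number 2 of untreated control vector cells (0.0598), number 1 of treated control vector cells (0.0609) or number 1 of untreated major satellite cells (0.0694).

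Myc was at 12.55 and 11.74 untreated and 12.10 and 11.33 with TGFbeta in control vector cells, and at 12.57 and 11.83 untreated and 12.26 and 11.18 with TGFbeta in major satellite cells. Number 1 arrays were higher than number 2 arrays by 0.74 to 1.08 in the 4 groups, more than the TGFbeta difference within either number. Within pairs Myc was lower in 4 of 4. It fell by 0.43 ± 0.10 in control vector cells (1.35-fold lower, adjusted p = 0.0217) and by 0.48 ± 0.10 in major satellite cells (1.39-fold lower, adjusted p = 0.0132). Neither passed with no replicate block (1 and 0.954). In control vector cells the call was lost without any 1 of that line's 4 arrays (0.0804 to 0.166), and in major satellite cells without the untreated (0.148) or treated (0.108) number 2 array. On the mean of both lines Myc fell by 0.45 ± 0.07 (adjusted p = 0.00156, with no replicate block 0.723).

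The inhibitor genes did not move as a class. Cdkn2b, which encodes the Cdk4 and Cdk6 inhibitor p15, was at 10.04 and 10.14 untreated and 10.60 and 10.90 with TGFbeta in control vector cells. In major satellite cells it was at 10.24 and 10.29 untreated and 10.77 and 10.84 with TGFbeta. All 4 treated arrays lay above all 4 untreated ones. Cdkn2b rose by 0.66 ± 0.09 (1.58-fold, adjusted p = 0.00153) and by 0.54 ± 0.09 (adjusted p = 0.00435). With no replicate block these were 0.0972 and 0.164, and without the number 2 untreated array of major satellite cells the latter was 0.065. The mean of both lines passed in both models (0.60 ± 0.07, 1.52-fold, adjusted p = 0.00017, with no replicate block 0.0196).

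Cdkn1b, which encodes p27, was at 11.04 and 11.63 untreated and 11.10 and 11.29 with TGFbeta in control vector cells, and at 11.13 and 11.46 untreated and 11.03 and 11.18 with TGFbeta in major satellite cells. Its differences were -0.14 ± 0.11 (adjusted p = 0.52) and -0.19 ± 0.11 (adjusted p = 0.311), and the pairs of control vector cells had opposite signs (0.05 and -0.34). A second Cdkn1b probeset differed by 0.21 and -0.55 in the pairs of control vector cells and by -0.15 and -0.68 in those of major satellite cells. Over both lines the difference of -0.17 ± 0.08 did not pass (adjusted p = 0.179), and it passed without the number 1 array of untreated control vector cells (0.0429). Cdkn1c, which encodes p57, was at 7.68 to 8.19 over all 8 arrays. That is near the array medians (7.72 to 7.92), and whether the gene was detected was not tested. It differed by 0.02 ± 0.10 (adjusted p = 0.953, 95% confidence interval -0.22 to 0.25) and by 0.08 ± 0.10 (adjusted p = 0.683, -0.16 to 0.31), higher in the number 1 pairs and lower in the number 2 pairs.

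**Figure D2:**
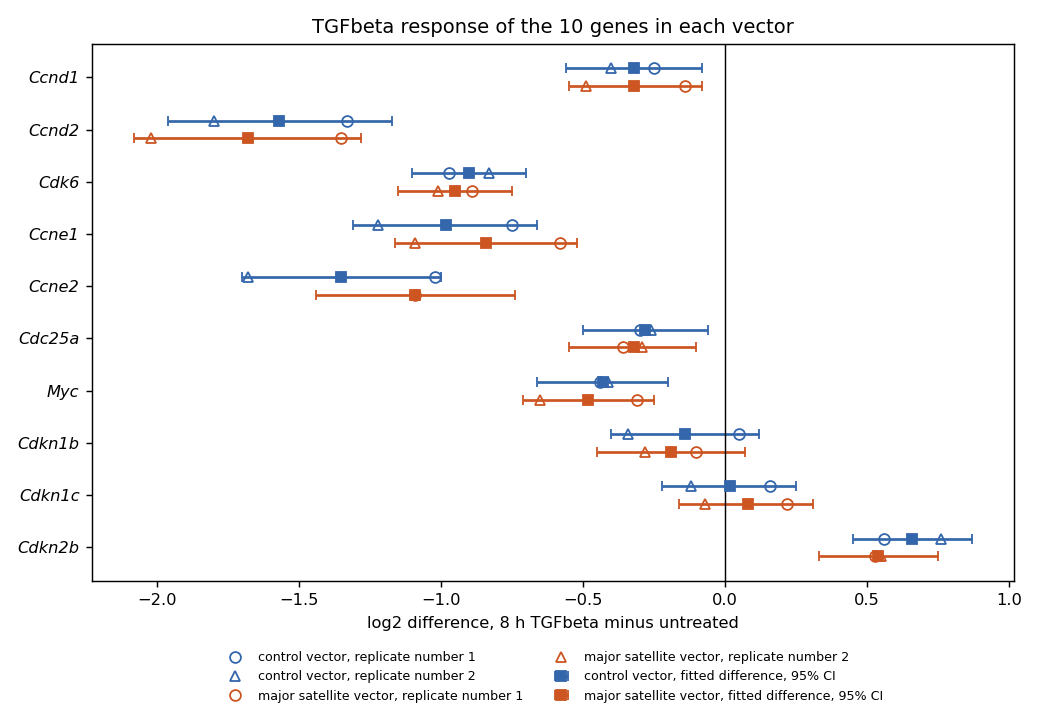
Log2 difference between 8 h of TGFbeta and untreated (horizontal axis) for the 10 genes in control vector (blue) and major satellite cells (orange). Squares with bars are the fitted difference with its 95% confidence interval, and open circles and triangles the pairs of replicate numbers 1 and 2. Ccnd2 lay farthest to the left in both lines (-1.57 and -1.68), and Cdkn2b lay to the right of 0 (0.66 and 0.54).

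On the mean of both lines, 7 of the 10 genes fell, 1 rose and 2 did not pass, against 24.3% of all genes passing, 13.1% lower and 11.2% higher. The model with no replicate block called 3 lower (Ccnd2, Cdk6 and Ccne2) and 1 higher (Cdkn2b), against 4.83% of all genes, 2.25% lower and 2.57% higher. All 4 treated arrays lay below all 4 untreated arrays for 4 of the 10 genes (7.37% of all genes), and above them for 1 (7.38%). All 4 pairs were lower with TGFbeta for 7 of the 10 (20.2% of all genes), and higher for 1 (22% of all genes).

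Because several falls looked larger in replicate number 2, the response was also compared between the numbers, a test added after the data were seen. The Ccnd2 response was -1.34 in number 1 and -1.91 in number 2, a difference of -0.57 ± 0.16 (adjusted p = 0.267). For Ccne1 it was -0.67 and -1.16, a difference of -0.49 ± 0.13 (adjusted p = 0.191). The Cdk6 response was -0.93 and -0.92, and that of Cdkn2b 0.55 and 0.66. None of the 10 passed by limma, against 0.391% of all genes, and 3 of the 10 had an unadjusted p under 0.05 (Ccnd2, Ccne1 and Cdkn1c), beside 1749 of the 19937 genes.

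**Figure D3:**
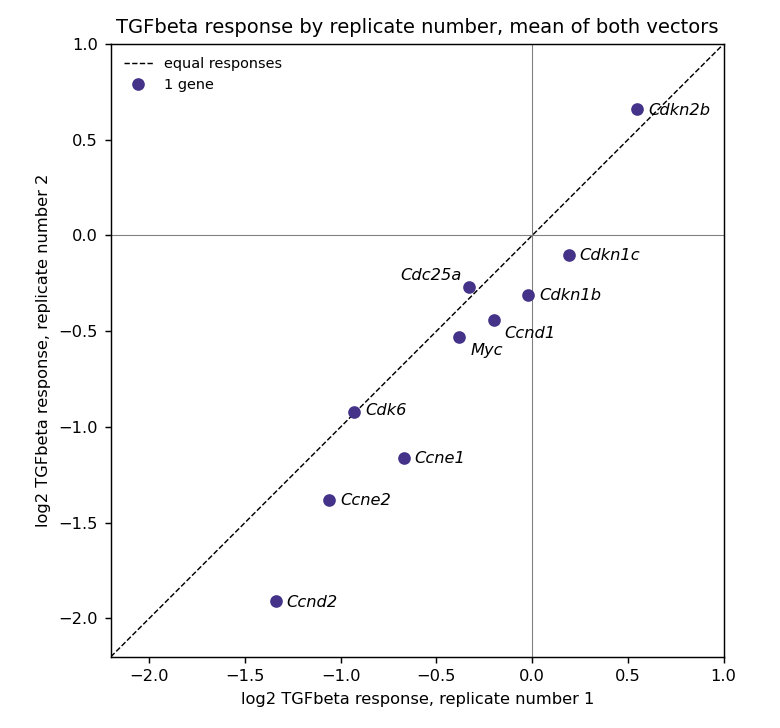
Log2 TGFbeta response, mean of both vectors, in replicate number 1 (horizontal axis) and number 2 (vertical axis), with 1 point per gene and a dashed line of equal responses. Ccnd2 and Ccne1 lay below the line (-1.34 and -1.91, -0.67 and -1.16), and Cdk6 lay on it (-0.93 and -0.92).

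The second question was whether the major satellite vector changed these genes. None of the 10 passed between vectors without TGFbeta, with TGFbeta or on the mean of both, where 0.0301%, 0.0301% and 0.0853% of all genes passed. None had an unadjusted p under 0.05 in any of these limma comparisons, beside 654, 1298 and 1071 of the 19937 genes. Both counts of 0 of 10 therefore lie near the share of all genes. The count was also 0 of 10 with no replicate block, where 0.00502% of all genes passed without TGFbeta, 0.00502% with it and 0.01% on the mean. These comparisons use the same arrays as the TGFbeta responses.

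Before TGFbeta the vector difference of the 10 genes ran from -0.10 (Cdkn1c) to 0.17 (Cdkn2b). Cdkn2b was 0.17 ± 0.09 higher with the major satellite vector (95% confidence interval -0.04 to 0.38, adjusted p = 1), by 0.20 and 0.15 in the pairs. With TGFbeta it was 0.05 ± 0.09 higher (-0.16 to 0.26, adjusted p = 0.911), and the pairs had opposite signs (0.17 and -0.06). Ccne2 with TGFbeta was 0.20 ± 0.16 higher (-0.15 to 0.55, adjusted p = 0.817), with pairs of -0.13 and 0.53. Its treated control vector arrays were 0.67 apart, and its treated major satellite arrays 0.02. Myc differed by 0.06 ± 0.10 (-0.17 to 0.29) without and 0.01 ± 0.10 (-0.22 to 0.24) with TGFbeta. One of the 10, Cdkn1c, had the same sign in all 4 vector pairs, lower with major satellite, where 16.6% of all genes had one sign. The widest intervals were those of Ccnd2, from -0.33 to 0.47 without and from -0.44 to 0.35 with TGFbeta, and those of Cdk6 were the narrower -0.20 to 0.20 and -0.25 to 0.15.

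**Figure D4:**
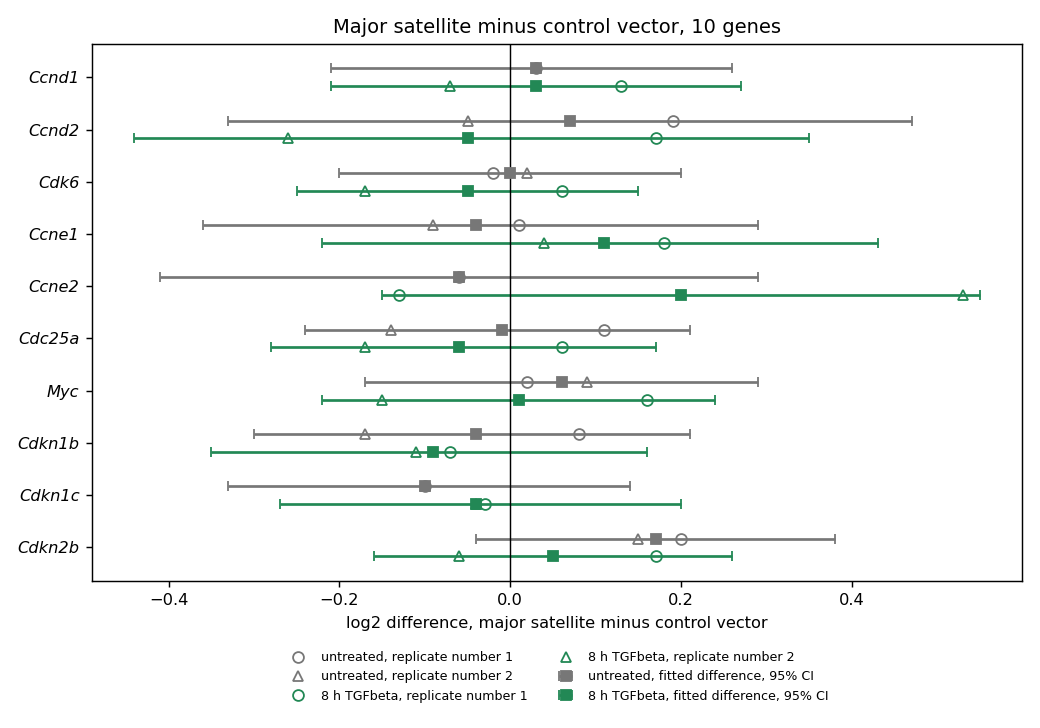
Log2 difference, major satellite minus control vector (horizontal axis), for the 10 genes untreated (grey) and after 8 h of TGFbeta (green). Squares with bars are the fitted difference with its 95% confidence interval, and circles and triangles the pairs of replicate numbers 1 and 2. Every interval crossed 0, and the largest fitted differences were 0.20 (Ccne2, TGFbeta) and 0.17 (Cdkn2b, untreated).

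The difference between the responses of the lines was tested directly. None of the 10 genes passed, nor did any of the 19937 (0% of all genes, 658 at an unadjusted p under 0.05, by limma, and 0 and 44 with no replicate block). The differences, major satellite minus control vector, ran from -0.12 (Ccnd2 and Cdkn2b) to 0.26 (Ccne2). The interval was -0.68 to 0.45 for Ccnd2, -0.24 to 0.76 for Ccne2, -0.33 to 0.23 for Cdk6, -0.38 to 0.28 for Myc and -0.42 to 0.18 for Cdkn2b.

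The other genes of the pathway were taken from 7 lists, also chosen with earlier results of these data known. The counts that follow are for the mean response of both lines. Beside them, 13.1% of all genes fell and 11.2% rose, with a median of 0.02. With no replicate block 2.25% of all genes fell and 2.57% rose. Of 19 measured G1/S cyclins, kinases and regulators outside the 10, 8 fell, 0 rose and 11 did not pass (median -0.17). Cdkn2c, another Ink4 inhibitor, fell by 0.91 ± 0.13 (adjusted p = 0.000698). Wee1, a kinase that restrains Cdk1, fell by 0.60 ± 0.08, Cdk1 itself by 0.50 ± 0.08, and Ccnd3, the gene of cyclin D3, by 0.43 ± 0.08. None of the 19 passed with no replicate block.

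Of 16 Rb and E2F family genes, which include the pocket protein genes Rb1, Rbl1 and Rbl2, 10 fell, 0 rose and 6 did not pass (E2f3, E2f4, E2f5, E2f6, Rbl2 and Tfdp2), with a median of -0.40. E2f8 fell by 1.18 ± 0.09, the cell cycle transcription factor gene Mybl2 by 0.95 ± 0.08, E2f1 by 0.71 ± 0.09 and E2f2 by 0.61 ± 0.08. None of these 4 passed with no replicate block (adjusted p = 0.0538, 0.366, 0.425 and 0.186 in turn), where 2 other genes of the list did. Of 17 E2F target genes 16 fell and 1 did not pass (median -0.60), among them the thymidine kinase gene Tk1 (-1.01 ± 0.09), the replication licensing gene Cdc6 (-0.94 ± 0.08), the histone chaperone gene Chaf1a (-0.75 ± 0.07) and the origin recognition gene Orc1 (-0.69 ± 0.06). None of these 17 passed with no replicate block.

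Among 19 Myc target genes, mostly of ribosome and nucleotide synthesis, 12 fell, 0 rose and 7 did not pass (median -0.28, with no replicate block 0 passed). Nop58, a nucleolar protein gene, fell by 0.51 ± 0.06, the spermidine synthase gene Srm by 0.45 ± 0.06, the pyrimidine synthesis gene Cad by 0.41 ± 0.06 and Nolc1 by 0.40 ± 0.06. The 13 genes of Myc partners and antagonists had 2 rises, 2 falls and a median of 0.11 (with no replicate block 0 passed). Mxd4, a Max-binding repressor, rose by 0.69 ± 0.12 and Bin1, which encodes a Myc-interacting protein, by 0.23 ± 0.07, while Mga fell by 0.26 ± 0.06 and Mlx by 0.25 ± 0.07.

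Of 16 genes for the turnover of cyclins, p27 and Myc, 3 rose, 3 fell and 10 did not pass (median -0.02, with no replicate block 1 rose and 1 fell). Skp2, the ubiquitin ligase subunit that targets p27 for degradation, fell by 0.76 ± 0.08 (adjusted p = 0.000154, with no replicate block 0.025). Fbxo31, a ubiquitin ligase subunit that targets cyclin D1, rose by 0.52 ± 0.06 (adjusted p = 0.000313, with no replicate block 0.0284). The deubiquitinase gene Usp37 fell by 0.49 ± 0.07, and the ubiquitin ligase gene Btrc rose by 0.29 ± 0.07. Of 15 TGFbeta cytostatic regulators, 6 rose, 3 fell and 6 did not pass (median 0.09, with no replicate block 3 rose and 1 fell). The helix-loop-helix inhibitors Id2 and Id3 changed by -1.89 ± 0.09 and -1.24 ± 0.09, and the Smad antagonists Skil and Smad7 rose by 1.31 ± 0.06 and 1.20 ± 0.07. Id2 (adjusted p = 0.00188) and Smad7 (0.00242) also passed with no replicate block, and Id3 (0.103) and Skil (0.0638) did not. Between vectors without TGFbeta, with it and on the mean, and in the difference between responses, 0 genes of any of the 7 lists passed. Over all genes 0.0301%, 0.0301%, 0.0853% and 0% passed in turn, so a count of 0 lies near the share of all genes.

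**Figure D5:**
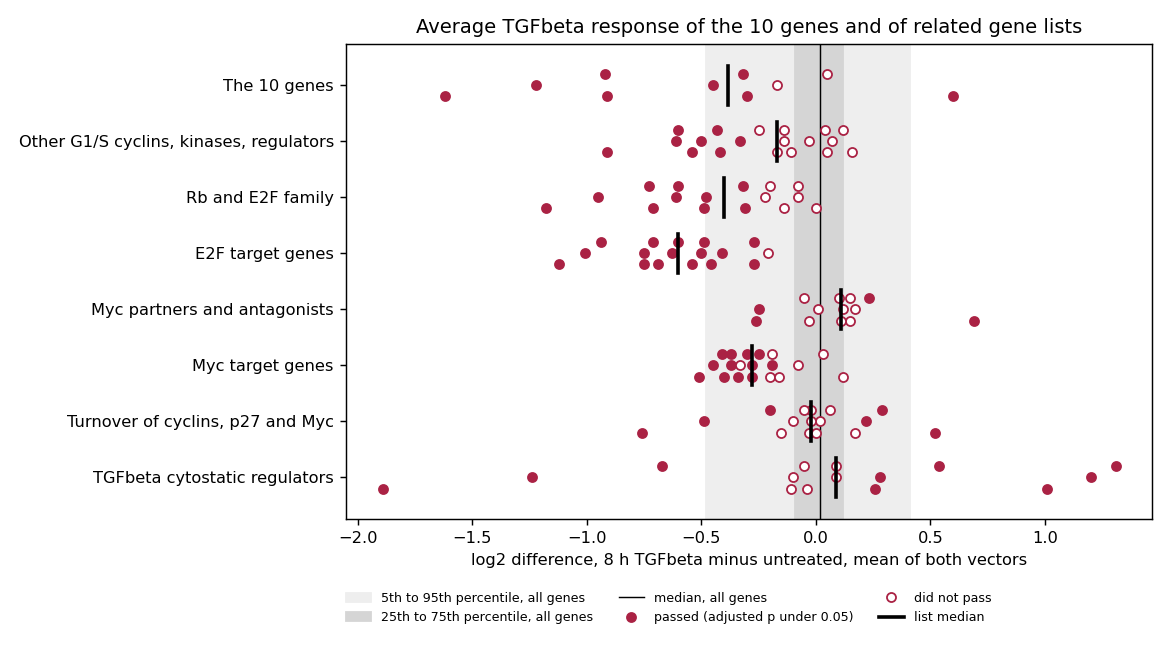
Log2 TGFbeta response, mean of both vectors (horizontal axis), of the 10 genes and of the measured genes of 7 related lists, 1 point per gene. Filled points passed at an adjusted p under 0.05, open points did not, black bars are list medians, and grey bands span the 5th to 95th and 25th to 75th percentiles of all genes (-0.48 to 0.41 and -0.09 to 0.12). The E2F target genes lay farthest left as a list (median -0.60).

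Genes with the most similar pattern to each of the 8 that passed were found by Pearson correlation over the 8 arrays after subtracting the mean of each replicate number, as a description that the shared TGFbeta treatment largely sets. Ccnd1 was most like Mcm2 (r = 0.998), a replicative helicase gene, and also like Rhbdd2 (0.995) and E2f7 (0.992). Ccne1 was most like Fanca and Wee1 (both 0.999), Ccne2 like Uap1l1 (0.998), and Ccnd2 like Usp46, Brip1 and Pik3c2g (0.999 each). Cdk6 was most like Ppl (0.999), which encodes the junctional protein periplakin, Myc like Map3k5 and Vars (0.997 each), Cdc25a like Mir3068 (0.995) and Cdkn2b like Hdac6 (0.995). Among the 10 genes, the 7 that fell correlated with each other at 0.82 to 0.99.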

How the data were processed

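Total RNA of 8 NMuMG samples was labelled and hybridised to Affymetrix arrays. The authors deposited log2 expression values, 1 for each of 34760 probesets and none missing. Per the submitters' processing notes, the tools were RMA (robust multi-array average) and limma. Their roles and versions, and a genome build, are not given in the sources used here. Sorted values differed by at most 0.16 between arrays of the same replicate number and by at least 0.27, at their widest gap, between numbers, so the 8 arrays did not share 1 distribution.

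Names came from the platform's annotation: 21640 probesets had 1 symbol, 1321 several and 11799 none there. Symbols were taken from RefSeq of GRCm38.p6 where it held the Entrez identifier (19855 of 19937 genes), and otherwise kept. Of several probesets the one with the highest mean was used. Promoter sequences are RefSeq's.

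The limma 3.58.1 model in R 4.3.3 (two-sided) held 1 mean per group over all 8 arrays and the replicate number as a block, for 7 comparisons, with Benjamini-Hochberg adjustment over 19937 genes. The number is read from a code in the titles. Deviations from group means correlated across genes between arrays of the same number (0.758 to 0.874, and genes are not independent replicates). This shows a difference shared by the arrays of a number and cannot check that they were matched pairs. The number of arrays limits the precision. On simulated data for the control vector response (19937 genes), 93 of 100 genes changed by 1 log2 unit were recovered. Of 100 changed by 2, 99 were recovered, with 7 false calls in all. The simulated noise was independent, with the spread left by the blocked model and a fixed difference between the numbers. These counts therefore describe that setting and not the error rate on the real arrays. From the lists, up to 4 passing genes with the smallest p were named, and 3 most similar genes were taken per passing member. The members and lists were chosen with earlier results of these data known. Alternatives were no replicate block, each array left out, the comparison's own arrays, 2 rescalings, averaged probesets, a filter on dim genes and an intensity trend.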

Additional observations from a re-analysis of the deposited data

How the results depend on the processing

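With no replicate block, the genes passing numbered 214 and 218 for the TGFbeta response in control vector and major satellite cells (2901 and 3044 with the block), 962 for the mean response (4841), 1 and 1 between vectors without and with TGFbeta (6 and 6) and 2 for the mean vector difference (17). Of the 10 genes, 2, 1 and 4 then passed in the 3 TGFbeta comparisons, where 6, 6 and 8 had. With only the arrays of the comparison, 1997 genes passed in major satellite cells, 16 between vectors without TGFbeta and 56 with it. Quantile normalization left 3 between vectors without TGFbeta.

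Leaving out 1 array gave 1202 to 3161 genes in control vector cells, 1228 to 3020 in major satellite cells and 3498 to 4860 on the mean. It gave 2 to 9 and 1 to 107 between vectors without and with TGFbeta, 8 to 49 on their mean and 0 to 17 for the difference between responses. The counts of 107, 49 and 17 came without the number 1 array of treated major satellite cells. Of the 10 genes, 5 to 7, 3 to 7 and 6 to 9 passed in the 3 TGFbeta comparisons and 0 in the others. In these fits the lone array of a group is assumed to vary like the others.

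Of 390 values of the 10 genes under the other settings, 378 kept their direction and side of the threshold, 5 gained a pass, 1 lost it (Myc in major satellite cells, with that line's arrays alone, adjusted p = 0.0584) and 6 changed sign with no call. The gains were Ccnd1 in both lines (intensity trend) and Cdc25a in major satellite cells (median centring, dim genes left out, intensity trend). No called difference changed sign in any setting tried. Of 560 values with 1 array left out, 80 changed sign, none with a call. Others lost or gained a pass, as given for each gene above. The cause of the lost calls was not tested. Fits with an array left out, or with only a comparison's own arrays, held fewer arrays.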
